A study of Mus musculus with 16 samples.

Results

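The immunoglobulin genes described here are the heavy chain, kappa and lambda genes and Jchain as read in mouse renal cortex. Members were chosen by their symbol and selected on their summed counts, as the genes of the cortex table whose symbol begins with Ighv, Igkv, Iglv, Ighg or Iglc, or is Ighm, Ighd, Igha, Ighe, Igkc or Jchain, and whose counts summed to 20 or more over the 8 cortex libraries. The symbols named 203 of the 34264 genes, of which 143 reached that sum, 47 had 1 to 19 counts and 13 had none. The 143 members were 63 heavy chain V genes, 7 heavy chain constant genes, 66 kappa V genes, 1 kappa constant gene, 2 lambda V genes, 3 lambda constant genes and Jchain. Ighe, the constant gene of IgE, had no count and is not among them.

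The 8 cortex libraries were 4 from HFD/STZ-induced diabetic mice and 4 from control mice, all wild type (WT), 24 weeks old and of batch 1. HFD/STZ stands for a high-fat diet with streptozotocin, a drug that destroys pancreatic beta cells, so diet, drug and the diabetic state cannot be told apart here. Total counts were 60628981 to 72352656 in diabetic libraries and 57473100 to 69947387 in control libraries. Nothing in the labels ties each numbered library to an animal of its own, and the p-values therefore cover library-to-library spread, part of which may be technical. Proximal tubule genes were abundant in cortex. Their 11 listed markers summed to 21560 to 28770 CPM (counts per 1000000, on scaled library sizes) in diabetic libraries and 25010 to 35780 CPM in control libraries. Control library 4 stood apart from the other controls, with a chi-square per gene of 84.8 to 105 against them and 19.8 to 30.7 among them. Control library 3 held adipocyte transcripts, with 186 CPM over 6 markers against 20.7 to 29.3 CPM in the other controls. Of the 19228 genes tested in cortex, 10.8% were called higher and 9.29% lower in diabetic libraries at a Benjamini-Hochberg adjusted p under 0.05 in edgeR's quasi-likelihood test.

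An antibody is built from paired heavy and light chains. Each B cell joins one V segment to D and J segments in the heavy chain and one V to one J segment in a kappa or lambda light chain, so a clone of B cells carries one V gene in each chain. The constant gene sets the class. A naive B cell makes IgM and IgD, and class switching moves the same V region onto IgG, IgA or IgE. Plasma cells, the end stage of the lineage, secrete antibody and carry very high immunoglobulin mRNA. The J chain links IgA into dimers and IgM into pentamers, which the epithelial receptor encoded by Pigr carries across mucosal and tubular epithelium.

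The members lay at 4 places of GRCm38. The 70 heavy chain members spanned chr12:113254830-116000461, the 67 kappa members chr6:67555497-70726966, the 5 lambda members chr16:19061618-19260859, and Jchain chr5:88519809-88527891. V genes are close copies of each other, which limits how well reads can be given to one of them. Over the 131 V members the closest other V gene was 74.9% to 99.0% identical over the V exon, with a median of 95.1%. In all, 70 V members were at least 95% and 9 at least 98% identical to another. The V segments below, read 5′ to 3′ from GENCODE M21 transcripts, are shown because they carry much of the V signal. The kappa pairs also show how few bases can part V genes. Capitals mark the bases at which the members of a pair differ, and of segments longer than 300 bases the first 300 are printed. Igkv1-110 (chr6:68270955-68271254, plus strand) and Igkv1-117 (chr6:68121515-68121814, plus strand) were each higher in every diabetic library than in any control library. They were 96.8% identical over 313 bases, with 10 mismatches, all of them in the stretch shown.
Igkv1-110: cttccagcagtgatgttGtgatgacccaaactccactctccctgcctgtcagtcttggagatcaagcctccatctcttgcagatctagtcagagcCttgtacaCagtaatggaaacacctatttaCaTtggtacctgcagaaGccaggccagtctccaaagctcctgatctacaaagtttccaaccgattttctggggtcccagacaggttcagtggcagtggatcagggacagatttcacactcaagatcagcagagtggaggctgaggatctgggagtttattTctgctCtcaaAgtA
Igkv1-117: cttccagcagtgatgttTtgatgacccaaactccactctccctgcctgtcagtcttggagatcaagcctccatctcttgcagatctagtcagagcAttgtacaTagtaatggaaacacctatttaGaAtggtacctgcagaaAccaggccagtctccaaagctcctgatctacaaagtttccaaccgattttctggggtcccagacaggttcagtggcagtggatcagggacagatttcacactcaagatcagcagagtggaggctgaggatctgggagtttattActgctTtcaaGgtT
Igkv10-96 (chr6:68631963-68632260, minus strand) and Igkv10-94 (chr6:68704508-68704805, minus strand) were 94.6% identical over 298 bases, with 16 mismatches.
Igkv10-96: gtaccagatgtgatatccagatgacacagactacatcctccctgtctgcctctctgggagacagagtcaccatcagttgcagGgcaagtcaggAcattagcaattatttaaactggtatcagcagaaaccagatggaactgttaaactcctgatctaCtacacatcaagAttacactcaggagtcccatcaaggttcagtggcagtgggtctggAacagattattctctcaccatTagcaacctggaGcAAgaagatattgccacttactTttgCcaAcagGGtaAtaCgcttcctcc
Igkv10-94: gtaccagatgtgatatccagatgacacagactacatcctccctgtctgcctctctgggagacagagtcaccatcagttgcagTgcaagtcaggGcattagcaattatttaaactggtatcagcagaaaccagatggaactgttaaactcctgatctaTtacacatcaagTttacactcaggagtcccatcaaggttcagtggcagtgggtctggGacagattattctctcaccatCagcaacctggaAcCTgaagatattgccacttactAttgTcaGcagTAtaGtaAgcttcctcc
Ighv1-81 (chr12:115920284-115920583, minus strand) and Ighv1-26 (chr12:114788377-114788676, minus strand), the heavy chain V genes with the highest mean, were 84.9% identical over 305 bases, with 46 mismatches, all of them in the stretch shown. They are not each other's closest copies, which were Ighv1-85 for Ighv1-81 (92.8%) and Ighv1-18 for Ighv1-26 (97.4%).
Ighv1-81: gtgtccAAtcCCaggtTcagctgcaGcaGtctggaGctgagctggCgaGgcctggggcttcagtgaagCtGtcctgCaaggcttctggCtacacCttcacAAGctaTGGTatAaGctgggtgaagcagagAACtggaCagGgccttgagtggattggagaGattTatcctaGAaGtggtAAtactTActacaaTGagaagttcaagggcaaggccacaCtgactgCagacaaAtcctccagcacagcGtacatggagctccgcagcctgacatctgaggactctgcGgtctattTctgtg
Ighv1-26: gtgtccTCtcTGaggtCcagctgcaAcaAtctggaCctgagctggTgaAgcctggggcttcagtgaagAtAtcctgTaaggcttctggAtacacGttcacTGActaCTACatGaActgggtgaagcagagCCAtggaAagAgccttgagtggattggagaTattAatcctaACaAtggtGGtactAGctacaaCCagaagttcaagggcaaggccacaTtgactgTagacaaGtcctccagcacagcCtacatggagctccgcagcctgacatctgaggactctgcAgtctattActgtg

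Immunoglobulin transcripts were more abundant in every diabetic library than in any control library. Summed over all members they came to 344, 430, 531 and 285 CPM in diabetic libraries 1 to 4, against 39.4, 34.9, 18.6 and 30.3 CPM in control libraries 1 to 4. The means were 397 ± 107 CPM in diabetic and 30.8 ± 8.96 CPM in control cortex (SD, n = 4 each), a ratio of 12.9. Leaving out one library at a time gave ratios of 11.4 to 14.2. The ratio of the means was 11.5 for heavy constant genes, 17.03 for kappa constant, 18.1 for lambda constant, 11.1 for heavy V, 15.7 for kappa V, 26.9 for lambda V and 10.7 for Jchain. The groups did not overlap for any of these 7 sums. In bulk tissue, more cells of a type and more RNA per cell cannot be told apart. Heavy constant genes held 49.0% of all member counts, kappa constant 23.6%, kappa V 11.2%, Jchain 7.85%, heavy V 6.21%, lambda V 1.21% and lambda constant 0.934%.

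Of the 143 members, 57 passed the filter on low counts. The median log2 fold change of the 57 was 3.66, beside -0.004 over all genes tested. Among them 39 were called higher, 0 lower and 18 neither, beside 10.8% higher and 9.29% lower over all genes tested. These counts are a description only, because 116 of the 143 members had under 20 counts over the 4 controls and so reached the sum through the diabetic libraries. For the same reason the adjusted p of a member with few control counts is given as a description. Of the 27 members with 20 or more counts in the control libraries alone, 26 were tested, of which 16 were called higher, 0 lower and 10 neither. The libraries of the groups did not overlap, with diabetic above, for 64 of 143 members, and for 0 with diabetic below. Over all 23238 genes with 20 or more counts these shares were 12.0% and 9.70%.

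Igha, the constant gene of IgA (ENSMUSG00000095079, chr12:113254830-113260236), held the most counts of any heavy chain gene in both groups. It stood at 76.0, 142, 148 and 96.1 CPM in diabetic libraries 1 to 4, against 12.5, 13.0, 6.35 and 12.1 CPM in control libraries 1 to 4. Every diabetic library was above every control library, and control library 3 was the lowest. The log2 fold change was 3.40 ± 0.31 (SE; edgeR adjusted p = 0.000714), with means of 115.5 ± 35.02 CPM in diabetic and 11.0 ± 3.11 CPM in control cortex (SD, n = 4 each).

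Ighm, the constant gene of IgM (ENSMUSG00000076617), varied widely among the diabetic libraries, at 73.1, 22.1, 40.9 and 7.71 CPM, against 4.95, 4.57, 3.54 and 3.67 CPM in the controls. Diabetic library 1 was the highest and diabetic library 4 lay near the control range without overlapping it. The log2 fold change was 3.11 ± 0.64 (edgeR adjusted p = 0.0144). Without diabetic library 1 it was 2.49, and without control library 4 it was 3.05 with an adjusted p of 0.0552, which ends the call. Ighd, the constant gene of the IgD that naive B cells carry, did not follow the other classes. It stood at 0.340, 0.981, 1.49 and 0.583 CPM in diabetic libraries, against 0.668, 0.611, 1.19 and 0.565 CPM in control libraries, and the groups overlapped. Its log2 fold change of 0.16 ± 0.46 missed the threshold (edgeR adjusted p = 0.847), and it was -0.25 without diabetic library 3.

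The IgG constant genes were low or without counts in control cortex. Ighg2c, the gene of the IgG2c subclass, stood at 9.87, 20.8, 37.8 and 22.7 CPM in diabetic libraries, against 1.90, 0.111, 0.0586 and 0.240 CPM in controls. Ighg2b, the IgG2b gene, stood at 7.55, 10.9, 17.3 and 5.89 CPM in diabetic libraries, against 0.823, 0.296, 0 and 0.240 CPM in controls. Neither gene overlapped between groups, and control library 1 was the highest control for both. The log2 fold changes were 5.33 ± 0.96 for Ighg2c (edgeR adjusted p = 0.00872) and 4.96 ± 0.82 for Ighg2b (0.00567), and without control library 1 they were 7.33 and 5.89.

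Ighg1, the IgG1 gene, had 108, 585, 602 and 126 counts in diabetic libraries and none in any control library. With 12 counts for all 4 controls together as the floor (3 steps of 4 counts, since multiples of 4 were in excess among these estimated counts), it was at least 111-fold higher in diabetic libraries. Ighg3, the IgG3 gene, had 49, 85, 419 and 21 counts in diabetic libraries and likewise none in controls, at least 44.95-fold higher by the same floor. Diabetic library 3 held most of the Ighg3 counts. No p is given for members without a control count, which passed the filter on low counts through the diabetic libraries alone.

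Igkc, the constant gene of all kappa light chains (ENSMUSG00000076609, chr6:70726435-70726966), had a small spread beside its difference. It stood at 79.4, 103, 117 and 81.6 CPM in diabetic libraries, against 6.77, 6.46, 3.37 and 5.81 CPM in controls. No diabetic library came near the control range, and the log2 fold change was 4.09 ± 0.24 (edgeR adjusted p = 8.14e-05). Of the lambda constant genes, Iglc1 stood at 3.53, 4.01, 2.33 and 2.01 CPM in diabetic libraries, against 0.206, 0.315, 0 and 0 CPM in controls. A log2 fold change of 4.58 ± 0.90 (edgeR adjusted p = 0.00934) was called, and it was 5.51 without control library 2. Iglc2 averaged 0.499 ± 0.138 CPM in diabetic and 0.0600 ± 0.120 CPM in control libraries (SD, n = 4 each) and was not called (log2 3.07 ± 1.10, edgeR adjusted p = 0.0785). All its control counts lay in control library 1, so the fit without that library had no control count and is given no p. Iglc3, 94.1% identical to Iglc2, was too low to be tested, with 4 to 44 counts in diabetic libraries and 4 counts in all over the controls.

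Jchain (ENSMUSG00000067149) stood at 23.3, 36.3, 43.4 and 20.01 CPM in diabetic libraries, against 3.77, 3.39, 1.35 and 3.01 CPM in controls, with no overlap (log2 3.42 ± 0.37, edgeR adjusted p = 0.00112). Relative to the summed counts of Igha and Ighm, whose proteins it joins, Jchain did not separate the groups, at 0.156 to 0.230 in diabetic and 0.136 to 0.216 in control libraries.

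**Figure D1:**
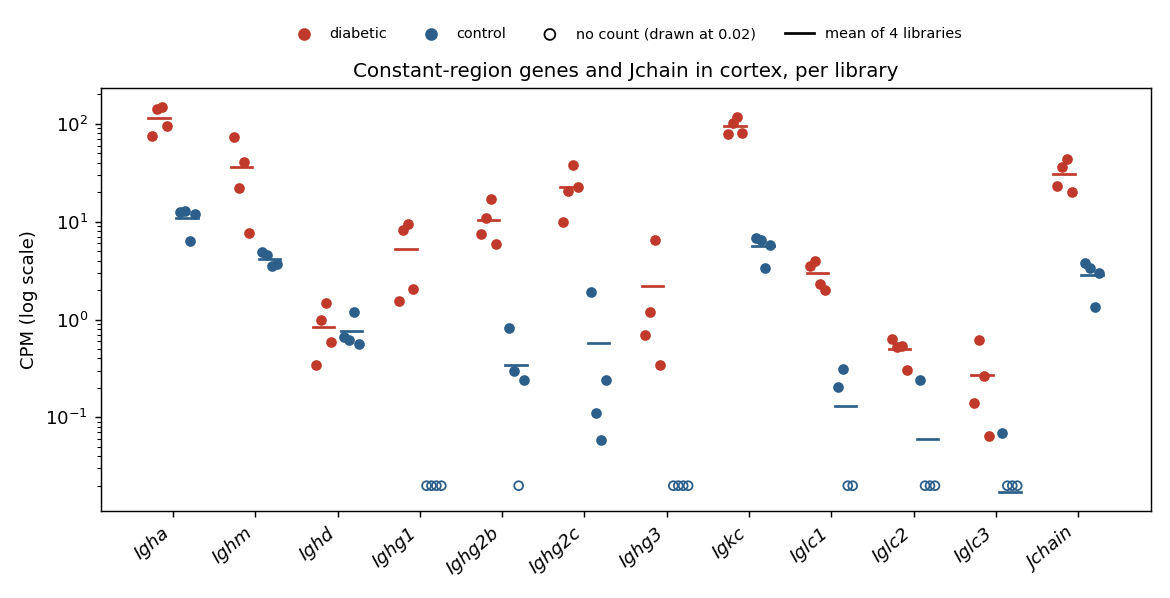
CPM of the 11 constant genes and Jchain in each cortex library on a log axis, with diabetic libraries (red) left of control libraries (blue), bars at group means and open circles for libraries with no count. Red points lie above all blue points for each gene except Ighd and Iglc3, and Ighg1 and Ighg3 have no count in any of the 4 control libraries.

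Class usage was read as each class's percent of the heavy constant counts of a library. IgA was the largest class in every library. It held 44.9%, 68.9%, 56.6% and 71.0% in diabetic libraries 1 to 4, against 60.0%, 69.9%, 57.03% and 71.9% in control libraries 1 to 4, so the groups overlapped. For a single library, exact Clopper-Pearson 95% intervals on steps of 4 counts ran from 43.1% to 46.7% in diabetic library 1 and from 49.5% to 64.0% in control library 3. Such intervals hold the counting error alone, because reads without molecular identifiers need not stand for separate molecules.

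IgM held 43.2%, 10.7%, 15.7% and 5.70% in diabetic libraries, against 23.8%, 24.6%, 31.8% and 21.9% in controls. The diabetic values spanned the control range, with library 1 above it and the other diabetic libraries below. IgG held 11.6%, 19.9%, 27.2% and 22.9% in diabetic libraries, against 13.1%, 2.19%, 0.526% and 2.86% in controls. The overlap came from diabetic library 1 and control library 1, whose intervals were 10.5% to 12.8% and 9.57% to 17.5%. The other controls reached no higher than 5.22% by their intervals. IgD held 0.201% to 0.570% in diabetic libraries and 3.21% to 10.6% in controls, with no overlap, while the level of Ighd itself was not called different.

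Within IgG, Ighg2c was the largest subclass in every diabetic library, at 50.3%, 50.6%, 53.2% and 73.3% of IgG counts. Ighg2b held 19.1% to 38.4%, Ighg1 6.597% to 20% and Ighg3 1.10% to 9.23% of IgG counts in the same libraries. The control libraries held 159, 22, 4 and 34 IgG counts, all from Ighg2b and Ighg2c. Counts favour long transcripts, so shares were also taken from FPKM, which divides by gene length. On FPKM, IgA held 36.3% to 60.0% in diabetic and 48.4% to 64.4% in control libraries, IgM 6.73% to 49.3% in diabetic and 27.5% to 38.1% in control libraries, and IgG 14.2% to 34.6% in diabetic and 0.894% to 18.5% in control libraries. In diabetic library 1, IgM was the largest class on that scale.

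**Figure D2:**
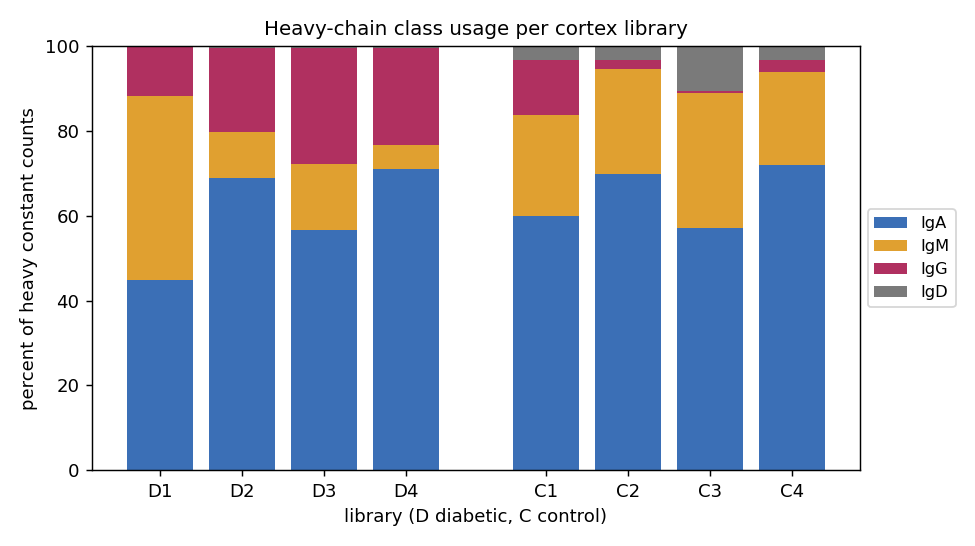
Percent of heavy chain constant counts held by IgA, IgM, IgG and IgD in each cortex library, diabetic libraries D1 to D4 on the left and control libraries C1 to C4 on the right. IgA holds 44.9% to 71.0% of the diabetic and 57.03% to 71.9% of the control bars, and the IgG part is largest in D3, at 27.2%.

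Light chains were mostly kappa, and the lambda share was larger in V counts than in constant counts in most libraries. Lambda held 5.14%, 4.74%, 2.61% and 2.83% of light constant counts in diabetic libraries, against 7.06%, 4.64%, 0% and 0% in controls. The zeros rest on 230 and 411 light constant counts, and their upper 95% bounds were 6.16% and 3.52%, so a difference was not detectable at this depth. Of light chain V counts, lambda held 13.5%, 12.4%, 6.11% and 7.84% in diabetic libraries, against 5.22%, 10.5%, 0% and 4.35% in controls. The groups overlapped for this share. Light constant counts per heavy constant count were 0.495, 0.526, 0.460 and 0.621 in diabetic libraries, against 0.349, 0.365, 0.302 and 0.345 in controls, with no overlap. On FPKM these ratios were 2.02, 2.31, 1.90 and 2.62 in diabetic libraries and 1.45, 1.64, 1.28 and 1.55 in controls, again without overlap.

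The V gene with the highest mean was Igkv1-110, whose sequence is given above. It stood at 1.86, 4.81, 12.7 and 5.63 CPM in diabetic libraries, against 0.771, 1.28, 0.410 and 0.240 CPM in controls. The groups did not overlap, although diabetic library 1 was close to control library 2. The log2 fold change was 3.23 ± 0.69 (edgeR adjusted p = 0.0135), and 2.62 without diabetic library 3. Its near copy Igkv1-117 was even across diabetic libraries, at 3.47, 3.84, 2.49 and 2.54 CPM, against 0.531, 0.185, 0.102 and 0.269 CPM in controls. The log2 fold change of Igkv1-117 was 3.51 ± 0.43 (edgeR adjusted p = 0.000992). Since 10 bases part these segments, reads may have been split between them.

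Igkv10-96 stood at 4.33, 3.81, 4.32 and 1.18 CPM in diabetic libraries, against 1.10, 0, 0 and 0 CPM in controls. Its 64 control counts all lay in control library 1, and it was not called (log2 3.66 ± 1.39, edgeR adjusted p = 0.107). No control count remained without that library, and no p is given for that fit. Igkv10-94 stood at 2.75, 1.56, 0.924 and 0.275 CPM in diabetic libraries, against 4 counts in control library 3 and none in the other controls. The fitted log2 fold change was 6.29 ± 1.04 (edgeR adjusted p = 0.00352), and 9.47 without control library 3. Where leaving out a library takes away the last control count, as here, the fitted value depends on the prior count and is no bound. The adjusted p of Igkv10-94 is a description only, since its control counts were below the floor of 12. Igkv3-2 averaged 2.26 ± 1.45 CPM in diabetic and 0.0855 ± 0.107 CPM in control libraries (SD, n = 4 each; log2 4.79 ± 0.99, edgeR adjusted p = 0.0109), and 5.88 on the log2 scale without control library 2.

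Among heavy chain V genes, Ighv1-81 was found in all 8 libraries. It stood at 1.06, 1.53, 3.30 and 2.23 CPM in diabetic libraries, against 0.668, 0.407, 0.307 and 0.607 CPM in controls, with no overlap. Its log2 fold change of 2.02 ± 0.40 (edgeR adjusted p = 0.00683) was the smallest of the named V genes that were called. Ighv1-26 stood at 1.94, 2.38, 1.42 and 0.453 CPM in diabetic libraries, against 0.274, 0.167, 0 and 0.381 CPM in controls (log2 2.90 ± 0.81, edgeR adjusted p = 0.0325). Diabetic library 4 was close to the controls, and the call was lost without control library 1 or 2 or diabetic library 1, 2 or 3 (adjusted p 0.0693, 0.0823, 0.0671, 0.0875 and 0.0699). Ighv3-6 averaged 1.32 ± 1.18 CPM in diabetic and 0.195 ± 0.229 CPM in control libraries (SD, n = 4 each), with groups that overlapped. Its log2 fold change was 2.79 ± 0.84 (edgeR adjusted p = 0.0436), and 4.00 without control library 2. It was no longer called without control library 1, 3 or 4 or diabetic library 2 or 3 (adjusted p 0.107, 0.108, 0.0838, 0.0812 and 0.132).

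Ighv1-53 had 48, 120, 184 and 27 counts in diabetic libraries and none in any control, at least 29.7-fold higher by the same floor of 12 counts. Ighv1-18 had 50, 21, 64 and 43 counts in diabetic libraries and none in controls, at least 13.9-fold higher. Igkv4-59 had 51, 19, 15 and 25 counts in diabetic libraries and none in controls, at least 8.62-fold higher. These V genes had counts in each diabetic library and in no control library. Igkv6-15 was even across diabetic libraries, with 55, 46, 51 and 43 counts in diabetic libraries and 4 counts in control library 2 alone (log2 5.31 ± 0.86, edgeR adjusted p = 0.00288), and 8.60 on the log2 scale without that library. Igkv15-103 had 19, 29, 34 and 18 counts in diabetic libraries and 2 in control library 2. Its log2 fold change was 5.22 ± 0.90 (edgeR adjusted p = 0.00371), and 7.64 without that library. The adjusted p of Igkv6-15 and of Igkv15-103 is a description only, since their control counts were below the floor of 12.

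Iglv1, a V gene of the small lambda locus, stood at 5.96, 6.41, 3.91 and 2.48 CPM in diabetic libraries, against 0.171, 0.333, 0 and 0.0989 CPM in controls. This was a log2 fold change of 5.00 ± 0.70 (edgeR adjusted p = 0.00205), and of 5.72 without control library 2. Iglv2, the other lambda V member, had 26, 4, 24 and 0 counts in diabetic libraries and 4, 3, 0 and 0 in controls, and was too low to be tested. The groups of Iglv1 lay far apart, and those of Iglv2 overlapped.

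Several V genes belonged to one diabetic library. In 14 of the 131 V members, 80% or more of the CPM over 8 libraries lay in 1 library, which was diabetic library 1 for 2 genes, library 2 for 5, library 3 for 4 and library 4 for 3, and a control library for 0. The 0 for control libraries is a description only, since most V members reached the sum of 20 counts through the diabetic libraries. Igkv12-89 had 204 counts in diabetic library 2 and none elsewhere. Igkv6-32 had 403 counts in diabetic library 3, 13 to 20 in the other diabetic libraries and 0 to 13 in controls, and was not called (log2 3.99 ± 1.45, edgeR adjusted p = 0.0941; 1.09 on the log2 scale without diabetic library 3). Ighv7-1 had 149 counts in diabetic library 2, 6, 0 and 8 in the other diabetic libraries, and 10 in control library 4. Ighv10-3 had 78 counts in diabetic library 4, 0, 6 and 3 in the others, and none in controls. The genes of this kind differed from one diabetic library to the next. Igkv12-89, Ighv7-1 and Ighv10-3 were picked for these sentences after their values were seen.

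Each V member had a count in at least 1 diabetic library. A count in all 4 libraries of the group was found for 75 of 131 V members in diabetic cortex and 4 in control cortex, and 48 had no count in any control. The single V member with its highest CPM in a control library was Ighv1-9, at 0.668 CPM in control library 1 against 0.0324 to 0.657 CPM in diabetic libraries and 0 in the other controls. Of the V members, 46 passed the filter, of which 30 were called higher, 0 lower and 16 neither, beside 10.8% higher and 9.29% lower over all genes tested. The calls and the numbers of V members with or without a count are a description only. Of the 131 V members, 112 had under 20 counts over the controls and reached the sum through the diabetic libraries. Diabetic libraries also held more V counts, with 838 to 2328 Ighv counts against 70 to 172 in controls.

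**Figure D3:**
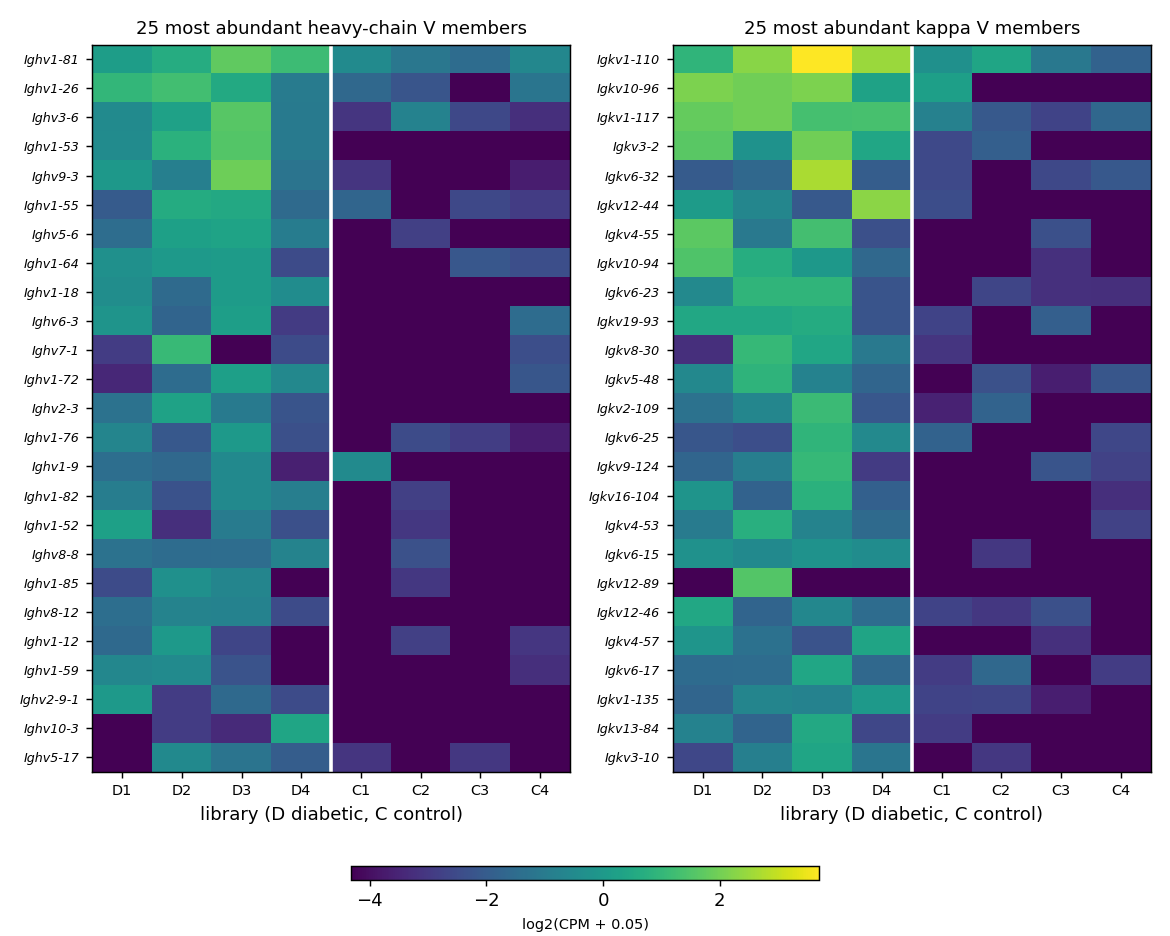
The 25 heavy chain V members and 25 kappa V members with the highest mean CPM (rows) in each cortex library (columns, diabetic D1 to D4 left of control C1 to C4), coloured by log2(CPM + 0.05). Most rows are lit in several diabetic columns and dark in most control columns, while Igkv12-89 is lit in D2 alone and Igkv6-32 is brightest in D3.

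How evenly the V genes shared the counts was read as the effective number of genes, the exponential of the Shannon entropy, which equals the number of genes when all are equally used. For Ighv it was 36.7, 32.6, 33.6 and 27.7 in diabetic libraries, against 9.98, 12.7, 6.91 and 11.0 in controls. For Igkv it was 29.7, 35.2, 28.1 and 22.8 in diabetic libraries, against 12.5, 9.63, 10.7 and 16.3 in controls. These groups did not overlap, but the number of genes seen grows with depth, and control libraries held 70 to 172 Ighv counts where diabetic libraries held 838 to 2328. At an equal depth of 20 steps of 4 counts, the depth of the smallest library, the expected number of Ighv genes was 15.4, 14.7, 14.5 and 14.2 in diabetic libraries, against 10.3, 12.1, 8.00 and 11.0 in controls. The Ighv groups still did not overlap, by a smaller margin. For Igkv at 32 steps it was 18.9, 20.1, 18.4 and 17.3 in diabetic libraries, against 14.9, 13.8, 14.0 and 17.4 in controls, and control library 4 fell within the diabetic range. The V members and their spread share the counts that chose the members, and no test was made of them.

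**Figure D4:**
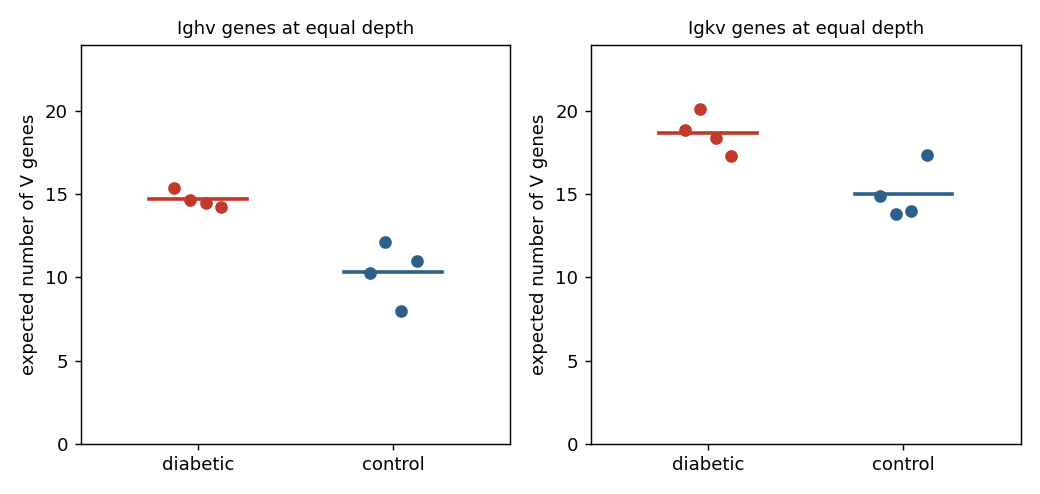
Expected number of Ighv genes at 20 steps of 4 counts (left) and of Igkv genes at 32 steps (right) in each library, diabetic left of control, with bars at the group means. For Ighv the diabetic libraries (14.2 to 15.4) lie above all controls (8.00 to 12.1), and for Igkv one control library, at 17.4, reaches the diabetic range of 17.3 to 20.1.

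The leading V gene differed between libraries. For Ighv it was Ighv1-26 in diabetic libraries 1 and 2 (9.35% and 8.90% of Ighv counts), Ighv9-3 in library 3 (10.2%) and Ighv1-81 in library 4 (16.5%). In controls it was Ighv1-81 in libraries 1, 3 and 4 (23.1%, 30% and 25%), tied with Ighv1-9 in library 1, and Ighv3-6 in library 2 (21.97%). The 5 leading Ighv genes held 28.9% to 39.5% in diabetic and 57.6% to 78.6% in control libraries, without overlap. For Igkv the leading gene held 10.7%, 10.6%, 19.2% and 19.3% in diabetic libraries and 25.2%, 38.5%, 24.6% and 12.3% in controls, and the groups overlapped. Ighv9-3, which averaged 1.38 ± 1.58 CPM in diabetic and 0.0242 ± 0.0324 CPM in control libraries (SD, n = 4 each), was called higher (log2 5.74 ± 1.09, edgeR adjusted p = 0.00692). Without diabetic library 3 its log2 fold change was 4.54, and without control library 1 it was 6.83. The adjusted p of Ighv9-3 is a description only, since its control counts were below the floor of 12. By family, Ighv1, the largest with 34 members, held 54.5% to 64.8% of Ighv counts in diabetic and 50% to 81.7% in control libraries. The Igkv1 family held 15.0% to 33.8% of Igkv counts in diabetic and 28.6% to 47.5% in control libraries. The Igkv4 family, with 15 members, held 11.3% to 20.3% in diabetic and 0% to 12.3% in control libraries. The ranges overlapped for each of these families.

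Genes of plasma cells rose in part. Of 15 listed, 14 were tested, and 5 were called higher and 1 lower, beside 10.8% higher and 9.29% lower over all genes tested. The same shares stand beside each marker list below. The median log2 fold change was 0.42, and the summed level of the list was 284 to 292 CPM in diabetic and 239 to 261 CPM in control libraries. Most of that sum was Xbp1, a secretory cell transcription factor, at 143 to 153 CPM in diabetic and 105 to 142 CPM in control libraries, and Txndc5, an endoplasmic reticulum protein, at 90.9 to 94.97 CPM in diabetic and 85.5 to 96.8 CPM in control libraries. Xbp1 was called higher (0.30 on the log2 scale, edgeR adjusted p = 0.0334) and Txndc5 was not (0.07, 0.44), while Eaf2, a transcription elongation factor, was called lower (-0.46, 0.0294). The calls of Xbp1 and Eaf2 held in 2 and 3 of the 8 fits that left out one library (adjusted p up to 0.0882 and 0.0839), and these genes and Txndc5 were picked after their values were seen. Pou2af1, a coactivator of immunoglobulin transcription, stood at 0.850, 0.869, 1.43 and 0.809 CPM in diabetic libraries, against 0.103, 0.148, 0.527 and 0.155 CPM in controls (log2 2.06 ± 0.52, edgeR adjusted p = 0.0197). Derl3, of the endoplasmic reticulum degradation machinery of secretory cells, averaged 2.61 ± 0.821 CPM in diabetic and 0.973 ± 0.420 CPM in control libraries (SD, n = 4 each; log2 1.42 ± 0.36, edgeR adjusted p = 0.0198). Irf4, a transcription factor that plasma cells need, had a log2 fold change of 1.61 ± 0.42 (0.0234). The groups did not overlap for these genes. Sdc1 encodes the plasma cell surface marker CD138 and is also made by epithelium, and it rose by 0.53 ± 0.14 on the log2 scale (0.0227). Without diabetic library 3 Pou2af1, Derl3, Irf4 and Sdc1 were not called (adjusted p 0.0631, 0.0637, 0.0745 and 0.0588 in the order given), and without control library 3 the log2 fold change of Pou2af1 was 2.84. Pou2af1 and Sdc1 were also lost without control library 2 (0.0507 and 0.0543), and Irf4 without control library 1 or 2 or diabetic library 2 or 4 (0.0627, 0.0539, 0.0531 and 0.0552). Mzb1, which helps assemble antibody in the endoplasmic reticulum, averaged 2.13 ± 0.594 CPM in diabetic and 1.58 ± 0.0668 CPM in control libraries (SD, n = 4 each) and was not called (log2 0.43 ± 0.23, edgeR adjusted p = 0.219). The remaining tested genes of the list were not called either. Prdm1 stood at -0.35 on the log2 scale (edgeR adjusted p = 0.337), Cd38 at -0.02 (0.966) and Ly6d at 0.04 (0.982). Fkbp11 stood at 0.41 (0.255), Tnfrsf13b at 0.53 (0.514) and Slamf7 at 0.81 (0.215). Tnfrsf17, the plasma cell survival receptor BCMA, stood at 0 to 0.0992 CPM in diabetic and 0 to 0.0586 CPM in control libraries, too low to test.

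Of 18 listed genes of mature B cells, 15 were tested, and 1 was called higher and 1 lower, beside 10.8% higher and 9.29% lower over all genes tested. Their sum was 29.7 to 44.6 CPM in diabetic and 26.4 to 32.9 CPM in control libraries. Blnk, an adaptor of B cell receptor signalling, at 13.2 to 15.5 CPM in diabetic and 13.6 to 15.7 CPM in control libraries, Cd72 and Ebf1 carried most of that sum, and each of the other listed genes was under 2 CPM in every library. Ms4a1, which encodes CD20, averaged 0.246 ± 0.110 CPM in diabetic and 0.222 ± 0.261 CPM in control libraries (SD, n = 4 each; log2 0.15 ± 0.87, edgeR adjusted p = 0.928). Cd79a, a signalling chain of the B cell receptor, stood at 0.438 to 0.547 CPM in diabetic and 0 to 0.223 CPM in control libraries without overlap, and was not called (1.64 ± 0.72, 0.137). The genes that passed were Cd72, a surface protein of B cells, which was higher (1.40 ± 0.22, 0.00283), and the complement receptor gene Cr2, which was lower (-1.01 ± 0.24, 0.0148). Of 10 germinal centre genes, 7 were tested, and Fas (0.71 ± 0.16, 0.0134) and Gna13 (0.26 ± 0.05, 0.00573), which many cell types express, were called higher.

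Markers of other white blood cells moved with the immunoglobulin genes. Of 17 T cell genes, 12 were called higher and 0 lower, with a median of 1.99, and their sum was 20.3 to 33.1 CPM in diabetic and 6.21 to 12.5 CPM in control libraries. Cd3e, a chain of the T cell receptor complex, averaged 1.18 ± 0.440 CPM in diabetic and 0.258 ± 0.0456 CPM in control libraries (SD, n = 4 each; log2 2.18 ± 0.36, edgeR adjusted p = 0.00304). Of 16 myeloid genes, 14 were called higher and 0 lower, with a median of 1.48, and their sum was 592 to 914 CPM in diabetic and 243 to 420 CPM in control libraries. Of 9 NK cell genes, 7 were tested and 1, Prf1, was called higher, a call lost in the fits without control library 1, 2 or 3 or any diabetic library (adjusted p 0.0555 to 0.124). Red blood cell genes went the other way, with 5 of 5 tested genes lower, a median of -1.11, and sums of 338 to 578 CPM in diabetic and 714 to 1294 CPM in control libraries. None of 4 tested lymph node stroma genes was called, and their sums overlapped, at 8.54 to 12.8 CPM in diabetic and 8.03 to 18.6 CPM in control libraries. The log2 fold changes were 0.99 for Ccl19, 0.16 for Ccl21a, -0.62 for Prox1 and -0.75 for Lyve1. Glycam1 and Madcam1, the vessel address proteins of lymph nodes and gut lymphoid tissue, were too low to test in either group. Each had 8 counts over the 8 libraries, with 0 in all 4 diabetic libraries. The part of T cell, myeloid and red blood cell content in the immunoglobulin results was not tested.

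**Figure D5:**
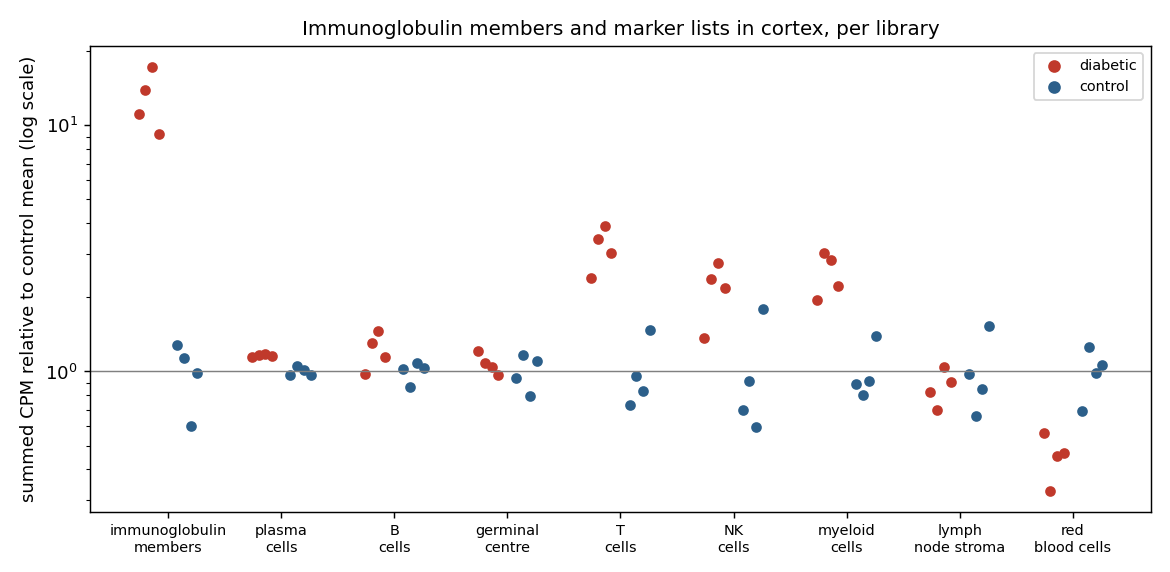
Summed CPM of the immunoglobulin members and of 8 marker lists in each cortex library, divided by the mean of the 4 control libraries, on a log axis, diabetic (red) left of control (blue). Immunoglobulin sums stand furthest from the controls, T cell and myeloid sums are raised without overlap, B cell, germinal centre and lymph node stroma sums overlap, and red blood cell sums are lower.

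Receptors and carriers of antibody were examined from a list of 12, of which 11 were tested, 6 were called higher and 0 lower, with a median of 1.20. Pigr, the carrier of polymeric IgA and IgM, stood at 274, 362, 239 and 269 CPM in diabetic libraries, against 129, 128, 141 and 207 CPM in controls (log2 0.92 ± 0.18, edgeR adjusted p = 0.00835). Every diabetic library was above every control, with control library 4 the closest. Fcgr1 (2.05 ± 0.36, 0.004) and Fcgr3 (1.32 ± 0.22, 0.00304), activating receptors for IgG on myeloid cells, were higher, as was Fcer1g, the signalling chain they share (1.37 ± 0.16, 0.000698). Fcgrt, the neonatal Fc receptor that recycles IgG, averaged 229 ± 14.8 CPM in diabetic and 225 ± 18.6 CPM in control libraries (SD, n = 4 each) and was not called (0.03 ± 0.08, 0.823). Its partner chain gene B2m was higher (1.20 ± 0.14, 0.00101).

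Of 16 factors of B cell and plasma cell survival and homing, 11 were tested, 3 were called higher and 0 lower, with a median of 0.21. Ccl28, a chemokine that draws IgA-secreting cells to mucosa, stood at 92.8, 78.4, 31.0 and 36.7 CPM in diabetic libraries, against 15.2, 16.1, 21.9 and 7.32 CPM in controls (log2 1.98 ± 0.46, edgeR adjusted p = 0.0221). The groups did not overlap, but the call was lost without control library 1, 2 or 4 or diabetic library 2 (adjusted p 0.0549, 0.0584, 0.0514 and 0.0544). Tnfsf13b, the survival factor BAFF, rose by 1.14 ± 0.28 on the log2 scale (0.0174), and this was lost without diabetic library 2 or 3 (0.0514 and 0.054). Cxcr4, a homing receptor of plasma cells and other leukocytes, rose by 0.55 ± 0.14 (0.0227), and this was lost without control library 2 or diabetic library 2 or 3 (0.0564, 0.0623 and 0.0632).

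Glomeruli, the capillary tufts that filter blood, had been isolated from mice of the same groups and counted in a separate table, in which Jchain was the only member listed, and the other members were not analysed there. Libraries of 2 pairs (diabetic 1 and 4, control 3 and 4) were far closer to each other than others of their group and were each summed, leaving 3 samples a group. Jchain stood at 0.441, 0.320 and 0.191 CPM in diabetic glomeruli, against 0.860, 0.238 and 0.343 CPM in control glomeruli, with groups that overlapped. The log2 fold change of -0.54 ± 0.57 was not called (edgeR adjusted p = 0.492), in a table where 37.5% of genes were called in either direction. Without control library 1 it was 0.12. The difference of the effects, cortex minus glomeruli, was 3.89 ± 0.70 on the log2 scale (edgeR adjusted p = 0.00108 for the interaction), beside 35.0% of genes called for such a difference. Pigr, which is not a member, was called higher in diabetic glomeruli too (log2 4.84 ± 1.02, edgeR adjusted p = 0.012). It stood at 22.2, 1.19 and 10.3 CPM in diabetic glomeruli, against 0.322, 0.370 and 0.458 CPM in control glomeruli.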

How the data were processed

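Per the labels' protocols, an RNeasy kit gave the RNA and a SMARTER mRNA-Seq kit the libraries. GRCm38 and mm10 are the builds in the submitters' processing notes. How reads were aligned and counted, and whether by strand, was not given in the sources used here. For the cortex the authors deposited estimated counts made whole, in which multiples of 4 were in excess (9031 values of 4 beside 4375 of 3 and 2594 of 5), and they were used without further rounding. For the glomeruli the authors deposited raw counts per symbol. FPKM values deposited by the authors, scaled to gene length as well as depth, served as an alternative. Because multiples of 4 were in excess in cortex, intervals, equal-depth numbers and floors were computed on steps of 4, and a floor was 3 steps over the group.

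Names came from GENCODE M21, which gave a symbol to 31953 of 34264 cortex identifiers (2311, with 0.32% of counts, had none). Cortex was fitted with edgeR 4.0.16 (R 4.3.3): filterByExpr, TMM scaling, robust glmQLFit and glmQLFTest, with Benjamini-Hochberg adjustment over all genes tested and a threshold of 0.05. Log2 fold changes are diabetic over control. In simulated data on these 19228 genes, 8% of 1.5-fold, 68% of 2-fold and 96% of 4-fold changes were recovered. All genes were simulated with the same spread, so these shares need not hold for the immunoglobulin members. In the glomeruli, diabetic libraries 1 and 4 (chi-square per gene 7.06) and control libraries 3 and 4 (2.82) were summed, each pair counting as 1 sample. The interaction was fitted on genes joined between the tables. DESeq2 1.42.0 and limma 3.58.1 on log2(FPKM + 1) were alternatives.

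The members, marker lists, tests and rule for named genes were chosen with earlier results of these data known. The rule named all constant members and Jchain, the 5 Ighv, 5 Igkv and up to 3 Iglv members with the highest mean CPM, the 8 V members with the smallest adjusted p, up to 4 genes of each list, and defining markers. Sums, class shares and V spread over members were given no p. Of the members only Jchain had a promoter in the RefSeq table (GRCm38.p6). The octamer of immunoglobulin promoters (ATGCAAAT, or ATTTGCAT on the other strand) was not in that window of 250 bases before to 50 after the start, and was in 570 of 32851 such windows (1.74%).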

Additional observations from a re-analysis of the deposited data

Results flagged for a closer look

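In 15 of 78 groups of 4 libraries examined, 1 library lay far from the other 3. Several flagged groups had counts in 1 library and none in the other 3. Such a group is always flagged, so no rate by chance is given. The groups were examined one gene or share at a time, and the same libraries recur in them, so they are not independent. In diabetic cortex, library 3 was far above the others for Ighg3 (6.56 CPM), Ighv9-3 (3.73 CPM) and Igkv6-32 (6.31 CPM), and library 4 was far below them for Igkv10-96 (1.18 CPM). In control cortex, library 1 was far above the others for Ighg2c (1.90 CPM), Iglc2 (0.240 CPM), Iglc3 (0.0686 CPM) and Igkv10-96 (1.10 CPM). Control library 2 was above the others for Ighv3-6 (0.537 CPM), Igkv6-15 (0.0740 CPM) and Igkv15-103 (0.0370 CPM). Control library 3 was below the others for Igha (6.35 CPM) and above them for Ighd (1.19 CPM), for Igkv10-94 (0.0586 CPM) and for the IgD share of heavy constant counts (10.6%).

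The effect on Jchain differed between cortex and glomeruli, by 3.89 on the log2 scale in a test of the difference. J segments, which the rule for members does not name, were also higher in diabetic libraries. They are joined to V segments in the same transcripts, so their values are not independent of the members. The 4 Ighj segments summed to a mean of 2.05 CPM in diabetic and 0.218 CPM in control libraries, the 5 Igkj segments to 2.44 CPM in diabetic and 0.191 CPM in control libraries, and the 4 Iglj segments to 0.470 CPM in diabetic and 0.0314 CPM in control libraries, with no overlap between groups.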

How the results depend on the processing

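Of 1620 recomputed fold changes of 87 named genes, 1457 kept their direction and their side of the threshold. Another 117 (25 genes) lost a call, 31 (8 genes) gained one and 15 (5 genes) changed sign. On leaving out one library, the log2 fold changes that changed sign ran from -0.25 to 0.46 for Ighd, -0.02 to 0.08 for Fcgrt, -0.25 to 1.31 for Ms4a1 and -0.38 to 0.71 for Fabp4. Without control libraries 3 and 4 together, Lyve1 was 0.30, Ms4a1 -0.29 and Fabp4 0.86. Fabp4 was also 0.23 with log2(FPKM + 0.1), 0.18 with log2(FPKM + 1) with or without a filter and 0.21 with the replicate block. Without control libraries 3 and 4 together, chosen after seeing the data, Ighm, Ighg2c, Ighv3-6, Ighv9-3 and Igkv1-110 also lost their calls (adjusted p 0.158, 0.0629, 0.221, 0.069 and 0.0972). Members called higher were 39 of 57 tested. They became 91 of 132 with DESeq2, 68 of 97 with log2(FPKM + 0.1), 15 of 16 with counts divided by 4 (chosen after seeing the data; fewer members passed the filter) and 33 to 51, of 58 to 79, on leaving out one library. None was called lower in any of these settings. Cortex genes called were 3856 and became 2401 with log2(FPKM + 1) without a filter and 2528 to 4715 on leaving out one library. Glomerular Jchain ran from -0.87 to 0.12 on leaving out one library. On FPKM the control medians were 56.2% for IgA and 29.5% for IgM, and the diabetic median for IgG was 29.8%. With members of 100 or more counts the median effective numbers were 16.0 (diabetic) and 6.03 (control) for Ighv and 22.9 (diabetic) for Igkv. The causes were not tested. The control libraries held 70 to 172 Ighv counts each, which limits the precision of their V shares.

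Libraries with the same replicate number did not deviate together (correlations -0.103 to 0.043 in cortex and -0.058 to 0.107 in glomeruli), so the numbers were not taken as pairs. With the number as a block, 2375 cortex genes and 29 members were called.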

Other observations

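Of 11 listed genes of the classical complement pathway, which antibody can start, 6 were called higher and 0 lower in diabetic cortex, with a median log2 fold change of 1.53. C1qa, C1qb and C1qc are also among the 16 myeloid genes, of which 14 were called higher, and the part of myeloid cells in these values was not tested. C3, the central component, averaged 132 ± 61.1 CPM in diabetic and 17.1 ± 6.87 CPM in control libraries (SD, n = 4 each; log2 2.94 ± 0.44, edgeR adjusted p = 0.00427). C4b averaged 49.4 ± 16.3 CPM in diabetic and 7.30 ± 3.13 CPM in control libraries (2.76 ± 0.34, 0.00195), and C1qa, a chain of the recognition molecule C1q, 27.2 ± 4.47 CPM in diabetic and 7.27 ± 2.80 CPM in control libraries (1.90 ± 0.25, 0.00153). C1s1, a protease of the same complex, averaged 25.4 ± 3.97 CPM in diabetic and 24.9 ± 4.96 CPM in control libraries and was not called (0.03 ± 0.16, 0.925).

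Beside 10.8% higher and 9.29% lower over all genes tested, 4 of 18 genes of the secretory pathway were called higher and 0 lower, with a median of 0.18. They were Creld2 (0.54 ± 0.11, edgeR adjusted p = 0.0077), Fkbp2 (0.26 ± 0.06, 0.0162), Ssr4 (0.24 ± 0.06, 0.0262) and Sdf2l1 (0.75 ± 0.20, 0.0277). The last 3 were lost on leaving out single libraries, with adjusted p up to 0.0528, 0.0782 and 0.086. Of 8 podocyte markers 1 was called higher and 2 lower, beside the same shares over all genes tested. The lower ones, Wt1 (-0.56 ± 0.15, edgeR adjusted p = 0.0286) and Podxl (-0.19 ± 0.06, 0.0427), lost their calls on leaving out single libraries, with adjusted p up to 0.0642 and 0.112. Of 11 proximal tubule genes 0 were called higher and 5 lower. Of 6 adipocyte genes 1, Fabp4, was tested and was not called (-0.14 ± 0.52, 0.882).

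At the threshold of 20 counts, Igkv14-126 and Ighv2-6 were just inside with 20 counts each, and Ighv1-37 was just outside with 19, its counts all in diabetic library 3. Igkv14-126 had 10 counts in each of diabetic libraries 2 and 3, and Ighv2-6 had 16 in diabetic library 3 and 4 in control library 2.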
